A study of Homo sapiens with 6 samples.

Results

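The calcium/calmodulin-dependent kinases, their calmodulin-binding relatives and the death-associated kinases were followed here through an siRNA screen. It was run in SUM149PT, an established cell line from a triple-negative inflammatory breast cancer. Library wells were taken whose Entrez locus identifier is that of a gene in a list of 25. Of these, 24 were found, each in 1 well, among 939 library siRNAs, and all 24 came from the kinome library. PNCK was not analysed here. DCLK1 (locus 9201) is listed under its older name DCAMKL1, DCLK2 (locus 166614) as MGC45428 and DCLK3 (locus 85443) as KIAA1765.

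Both groups of samples carried the same reverse transfection, with 45 nM siRNA complexed for 30 minutes, 750 cells per condition and 48 hours of incubation. The treatment time was 72 hours for both groups. The 3 untreated samples received no eicosapentaenoic acid (EPA, an omega-3 polyunsaturated fatty acid), and the 3 treated samples received it at 50 µM. The fluorescence of a resazurin reagent, which living cells reduce, was then read in each well, in arbitrary units. Whether the samples came from separate cultures is not stated in the labels, and p-values therefore describe the spread among these 6 samples alone, which may be technical. The catalogue numbers begin with M, the supplier's prefix for pools of several siRNAs to a gene, and knockdown was not analysed here.

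As background, calcium entering the cytosol binds calmodulin, and the complex opens the autoinhibited kinase domain of many of these enzymes. CaMKK phosphorylates and activates CaMKI and CaMKIV, whereas CaMKII is a multimer that phosphorylates itself. The death-associated kinases are linked to autophagy, membrane blebbing and cell death, the myosin light chain kinases to contraction, and phosphorylase kinase to the breakdown of glycogen.

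Untreated cells gave a high signal and EPA lowered it. OTP3, the negative control siRNA, kept 50.8% ± 3.50 (SE, n = 3 samples per group) of its mean signal with EPA, and all 3 treated samples lay below all 3 untreated ones (exact permutation p = 0.1, the smallest possible for 3 against 3, two-sided). Blank wells averaged between 3477 and 3959 units by plate and sample, so a well near that level has little signal left to lose. Cells alone kept between 28.0% and 52.7% of their signal in the plate rows that hold the 24 wells, against 92.1% in row 1 and 80.4% in row 16 over all plates. There were 72 wells of cells alone over 3 plates of 16 rows, so the value of a single plate row rests on few wells. Only the well of CAMK2A lay at the plate edge, in column 24. The 24 siRNAs themselves kept from 18.6% (DCLK1) to 93.7% (PHKA2) of their untreated signal, with a median of 64.2%, beside a median of 68.6% over the 939 library siRNAs. All these shares are of raw fluorescence, with the blank level left in.

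To compare siRNAs, each value was expressed as the log2 ratio to the library wells' median on the same plate in the same sample. A value of 0 is therefore the level of the typical library siRNA, and EPA-treated minus untreated is negative where EPA lowered the signal more than it lowered the plate's median. The question behind that difference is which gene's loss adds to the effect of EPA.

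The siRNAs with a difference beyond 1 log2 unit were 3 of the 24, and all 3 were lower with EPA. They target DCLK1 (-1.75), PSKH1 (-1.51) and DAPK2 (-1.18). Counted from the lowest difference of all library siRNAs, they ranked 5th, 18th and 32nd, so other library siRNAs also lay beyond that limit. The share of the library beyond 1 log2 unit was not counted, so whether 3 of the 24 is unusual was not tested. PHKA1 (-0.53) and PHKG1 (-0.45), subunits of phosphorylase kinase, were also lower, and PHKA2 (0.64) and DCLK2 (0.44) were higher. The 24 thus had 5 lower and 2 higher at a limma adjusted p under 0.05, where 15.2% of all library siRNAs were lower and 29% higher. In shares, 20.8% of the 24 were lower and 8.33% higher. Their median difference was 0.08, beside 0.20 for all library siRNAs. The log2 values of the groups did not overlap for 6 of the 24 with EPA below and 3 with EPA above, against 18.8% and 36% of the library. After median polish, which removes row and column effects of each plate, DCLK1, PSKH1 and DAPK2 were lower and PHKA2 and DCLK2 higher, where 14.8% of the library was lower and 16.3% higher. DCLK1, PSKH1 and DAPK2 passed in all 16 alternatives. The counts rested on few samples otherwise. Without untreated replicate 2 there were 3 lower and 1 higher, without untreated replicate 3 there was 1 higher, and without EPA-treated replicate 5 or 6 there were 0 higher in limma's test (2 and 1 at an unadjusted p under 0.05).

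The doublecortin-like kinases join a kinase domain of the calmodulin-dependent type to microtubule-binding doublecortin domains, best known from DCLK1 and DCLK2. The siRNA against DCLK1 read 37209, 34006 and 32207 units in the untreated samples and 7518, 5464 and 6245 with EPA. All 3 treated wells lay far below all 3 untreated ones, 1590 to 3677 units above the plate's blanks. The signal left was 18.6% ± 1.91 (SE). Untreated, the siRNA was above the plate median, at 0.51 (SE 0.107, limma adjusted p = 0.00171), and with EPA it was below it, at -1.24 (SE 0.107, limma adjusted p = 2.93e-06). The difference of -1.75 had a 95% interval of -2.09 to -1.41 (limma adjusted p = 0.000169, with 4.87e-06 to 0.00155 over the alternatives) and was the 5th lowest of the 939. It was -1.61 after median polish and -2.82 after blank subtraction. The rest of the library in the same row of plate 1 had a median difference of 0.20, and DAPK3, in that row and 2 columns away, stood at 0.16.

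The other doublecortin-like siRNAs were lower than the library without EPA, at -0.81 (DCLK2) and -0.89 (DCLK3). Neither call held after median polish (-0.10 and -0.22, limma adjusted p = 0.476 and 0.237). DCLK2 read 17343, 11749 and 13426 units untreated and 14250, 10406 and 9900 with EPA, so the raw values overlapped. Relative to the plate it went from -0.81 to -0.38, a difference of 0.44 (SE 0.156, limma adjusted p = 0.0454). That call was lost in 5 of 6 fits without a sample (0.35 without untreated replicate 2, 0.42 without untreated replicate 3, and 0.42, 0.46 and 0.42 without EPA-treated replicates 4, 5 and 6). It was also lost after blank subtraction (0.48, limma adjusted p = 0.123). After median polish the difference was 0.63 (limma adjusted p = 0.00607), and the EPA-treated value was 0.53, above the library instead of below it. DCLK3 read 12613, 8972 and 20347 units untreated and 12067, 7743 and 6427 with EPA, and the groups overlapped. Its difference was 0.09 with an interval of -0.51 to 0.68 (limma adjusted p = 0.804). Within samples, DCLK1 lay above DCLK2 by 1.32 ± 0.115 log2 units untreated and below it with EPA, at -0.86 ± 0.0797 (SD, n = 3), a change of -2.19 ± 0.0809 (SE) without overlap of the groups. DCLK1 is on plate 1 and DCLK2 on plate 2.

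PSKH1 is a kinase found at the Golgi and in the nucleus, related to the calmodulin-dependent kinases by sequence. Its siRNA read 27382, 28845 and 23256 units untreated and 5888, 5337 and 5526 with EPA. No treated well came near an untreated one, and 21.1% ± 1.46 (SE) of the signal was left. The siRNA was at 0.11 without EPA, where it did not pass (limma adjusted p = 0.472), and at -1.40 with it (limma adjusted p = 3.55e-06). The difference of -1.51 had an interval of -1.90 to -1.11 (limma adjusted p = 0.000352, with 4.87e-06 to 0.00264 over the alternatives) and was the 18th lowest of the 939. It was -1.67 after median polish and -2.80 after blank subtraction. PHKG2, in the same row of plate 2 and 3 columns away, stood at 0.31, and the other library wells of that row had a median of 0.16.

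Among the death-associated kinases DAPK2 was set apart from its relatives. DAPK1, DAPK2 and DAPK3 share a catalytic domain type, DAPK1 and DAPK2 are regulated by calmodulin, and STK17A and STK17B (DRAK1 and DRAK2) are more distant members without a calmodulin-binding segment. The siRNA against DAPK2 (locus 23604) read 40663, 39702 and 42919 units untreated and 11305, 10228 and 12316 with EPA. Among the 24 only CAMK2A (42790) had a higher untreated mean than its 41090 units. The 3 treated wells were far below, and 27.5% ± 1.60 (SE) of the signal was left. Its wells with EPA still lay 6354 to 8357 units above the blanks, against 1498 to 1994 for PSKH1. The siRNA went from 0.77 (SE 0.107) untreated to -0.42 (SE 0.107) with EPA, past the threshold in both groups, although without edge wells the second value was -0.24 and did not pass. The difference was -1.18 (interval -1.52 to -0.85, limma adjusted p = 0.000549, with 7.59e-05 to 0.00417 over the alternatives), -1.12 after median polish and -1.47 after blank subtraction.

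DAPK1 sat 2 wells away from DAPK2 in row 4 of plate 1. It read 21219, 17412 and 19075 units untreated and 11881, 13192 and 15648 with EPA, so 70.6% ± 7.02 (SE) was left. DAPK3, in row 6 of the same plate, read 22021, 22493 and 24017 units untreated and 18996, 13841 and 15268 with EPA, and 70.2% ± 6.98 was left. OTP3 kept 50.8% ± 3.50, and the median over the 939 library siRNAs was 68.6%. The differences of DAPK1 and DAPK3, 0.18 (interval -0.25 to 0.60) and 0.16 (interval -0.17 to 0.49), did not pass. Within samples, DAPK1 minus DAPK2 was -1.10 ± 0.140 log2 units untreated and 0.26 ± 0.165 with EPA (SD, n = 3), a change of 1.36 ± 0.125 (SE). DAPK2 minus DAPK3 changed by -1.35 ± 0.132 (SE). After median polish these changes were 0.88 and -0.99. DAPK1 was lower than the library without EPA (-0.33, limma adjusted p = 0.0479), a call lost without any of the 3 untreated replicates (-0.40, -0.26 and -0.33), without EPA-treated replicate 5 (limma adjusted p = 0.0628) and after median polish (0.01).

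The siRNAs against STK17A and STK17B, both on plate 3, differed in level. STK17A read 13942, 9421 and 11141 units untreated and 10095, 7133 and 6507 with EPA, with overlap, and was lower than the library in both groups (-0.82 and -0.56). STK17B read 36873, 32567 and 38367 units untreated and 19266, 13914 and 14597 with EPA, without overlap, and was higher than the library in both (0.84, the highest of the 24 without EPA, and 0.46). With EPA that call was lost after median polish (0.07, limma adjusted p = 0.673) and with the low-signal filter (0.22, limma adjusted p = 0.0628). STK17B kept 44.3% ± 5.15 (SE) of its signal, and its difference of -0.37 (interval -0.69 to -0.06) did not pass (limma adjusted p = 0.0557). It passed without EPA-treated replicate 4 (-0.48, limma adjusted p = 0.0198) and with the low-signal filter (-0.40, limma adjusted p = 0.0375). It also passed with quantile normalization (-0.60) and when each plate was centred on its median difference (-0.63), and not after median polish (-0.31, limma adjusted p = 0.186). The difference of STK17A was 0.26 (limma adjusted p = 0.263).

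Phosphorylase kinase is built of catalytic gamma subunits, regulatory alpha and beta subunits and calmodulin itself. PHKA1 and PHKG1 encode the muscle forms of alpha and gamma, and PHKA2 and PHKG2 the forms best known from liver. PHKA1 read 29314, 27282 and 23792 units untreated and 13535, 10424 and 9733 with EPA, and 41.9% ± 5.04 (SE) was left. PHKG1 read 25829, 24342 and 22141 units untreated and 14452, 9727 and 8521 with EPA, and 45.2% ± 7.77 was left. PHKA2 read 22414, 23506 and 24471 units untreated and 19876, 23860 and 22241 with EPA, so its groups overlapped and 93.7% ± 5.47 was left. The raw groups separated for PHKA1 and PHKG1, as they did with EPA below for 20 of the 24 siRNAs and 579 of the 939, and overlapped for PHKA2. PHKA2 had the smallest loss of the 24, and its row, row 12 of plate 2, is also the row of PHKA1 and PHKG1. In that row cells alone kept 37.7% of their signal, and the median over the 939 library siRNAs was 68.6%.

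In the fit, PHKA1 was at -0.53 (SE 0.148, limma adjusted p = 0.0159), PHKG1 at -0.45 (SE 0.152, limma adjusted p = 0.0375) and PHKA2 at 0.64 (SE 0.200, limma adjusted p = 0.0263). The other library wells of the row, these siRNAs included, had medians of -0.26 beside PHKA1 and PHKG1 and of -0.45 beside PHKA2. The value beside PHKA2 is the difference of PHKG1 itself, so PHKG1 lay in the middle of its row. After median polish PHKA1 (-0.41, limma adjusted p = 0.0601) and PHKG1 (-0.41, limma adjusted p = 0.132) no longer passed, while PHKA2 did (0.57, limma adjusted p = 0.00504). With OTP3 centring PHKA1 stood at -0.01 and PHKG1 at 0.08. Single samples mattered too. PHKA1 did not pass without untreated replicate 2 (-0.47), and PHKA2 did not without untreated replicate 1 (0.54) or EPA-treated replicates 5 (0.54) and 6 (0.52). PHKG1 passed in 1 of 6 such fits, the fit without EPA-treated replicate 4, and ranged from -0.52 to -0.39 over the 6. Within samples, PHKA1 minus PHKA2 went from 0.19 ± 0.215 log2 units untreated to -0.98 ± 0.369 with EPA (SD, n = 3), a change of -1.17 ± 0.247 (SE), and of -0.99 after median polish. PHKA1 minus PHKG1 changed by -0.08 ± 0.0877, and its groups overlapped.

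PHKG2 gave a bright signal in both groups. Its wells read 42464, 38517 and 37668 units untreated and 21836, 33294 and 35289 with EPA, so the raw groups separated and EPA-treated replicate 4 was well below the other 2. The siRNA was higher than the library without EPA (0.69) and with it (1.00). Its difference was 0.31 (interval -0.27 to 0.89, limma adjusted p = 0.346) and passed without EPA-treated replicate 4 (0.68, limma adjusted p = 0.00464).

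CaMKI isoforms and CaMKIV are the targets of CaMKK. The siRNAs against CAMK1 and CAMK4 were lower than the library without EPA, and those against CAMK1D and CAMK1G were higher. CAMK4 read 6456, 9199 and 6116 units untreated and 5240, 4401 and 5054 with EPA, which with EPA is 527 to 1399 units above the blanks. It was at -1.76 (SE 0.119, limma adjusted p = 1.02e-06) and -1.62 (SE 0.119, limma adjusted p = 9.32e-07). CAMK1 read 16759, 8759 and 9973 units untreated and 8164, 8676 and 8182 with EPA, with untreated replicate 1 standing above the other 2, and was at -1.09 and -0.85. CAMK1D read 43324, 38942 and 38299 units untreated and 25430, 28905 and 24914 with EPA, and was at 0.73 and 0.81. CAMK1G read 31151, 31322 and 28883 units untreated and 15575, 21196 and 17606 with EPA, at 0.34 and 0.26, and passed without EPA but not with it (limma adjusted p = 0.0362 and 0.0849). That untreated call was lost without any of the 3 untreated replicates (0.32, 0.32 and 0.37), without EPA-treated replicate 6 (limma adjusted p = 0.0507) and after median polish (-0.10), and CAMK1G passed with EPA without EPA-treated replicate 4 (0.44).

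In EPA-treated minus untreated no siRNA of these 4 passed. All 4 kept between 59.5% and 70.5% of their raw signal, with differences from -0.07 (CAMK1G) to 0.24 (CAMK1). The blank level is part of that raw signal and weighs most in dim wells. Above the blanks, CAMK4 stood at 2350 to 5434 units untreated and 527 to 1399 with EPA, and CAMK1 at 4994 to 12880 and 4223 to 4802. CAMK1D had the narrowest interval, -0.23 to 0.38, around 0.08. CAMK1 passed without untreated replicate 1 (0.52, limma adjusted p = 0.0472). For CAMK4, so near the blanks, blank subtraction moved the difference from 0.14 to -0.91, without passing (limma adjusted p = 0.144). With OTP3 centring alone the CAMK4 difference was 0.52 and passed (limma adjusted p = 0.0455).

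The 4 CaMKII genes encode subunits of the same multimer. Untreated, their siRNAs ran from -1.54 to 0.82, where the library ran from -2.69 to 1.72. With EPA they ran from -1.66 to 1.04, where the library ran from -2.0 to 2.3. CAMK2B read 7714, 10462 and 7093 units untreated and 4812, 4570 and 4840 with EPA, where its mean was the lowest of the 24, although single wells of CAMK4 (4401) and MYLK2 (4539) were lower. It was at -1.54 (SE 0.117) without EPA and -1.66 (SE 0.117) with it, both past the threshold. CAMK2A, in the edge well, read 46681, 45474 and 36205 units untreated and 35121, 29949 and 28064 with EPA, where its mean (31040) was the highest of the 24, next to PHKG2 (30140), which had the brightest well (35289). CAMK2A was at 0.82 and 1.04. After median polish CAMK2A stood at 0.07 in both groups and did not pass. CAMK2B still passed there, at -0.77 and -1.25. In row 7 of plate 1, CAMK2B minus CAMK2G was -1.86 ± 0.393 log2 units untreated and -1.55 ± 0.473 with EPA (SD, n = 3), with overlap between the groups.

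CAMK2D and CAMK2G had the largest standard errors of the 24 (0.279 and 0.278 for the difference). CAMK2D read 27978, 20052 and 30055 units untreated and 7925, 11189 and 14823 with EPA, and 43.5% ± 9.19 (SE) was left. CAMK2G read 37547, 36163 and 20148 units untreated and 18300, 9285 and 15903 with EPA, and 46.3% ± 11.9 was left. The raw groups separated for both, but the spread within a group was wide, and CAMK2D (-0.54, interval -1.17 to 0.08, limma adjusted p = 0.138) and CAMK2G (-0.43, interval -1.05 to 0.19, limma adjusted p = 0.231) did not pass. CAMK2G passed without untreated replicate 3, at -0.71 (limma adjusted p = 0.0416), and was then also higher than the library untreated (0.61). CAMK2D was lower than the library under EPA without EPA-treated replicate 6 (-0.71, limma adjusted p = 0.0165). The difference of CAMK2B was -0.12 (limma adjusted p = 0.558), but -1.52 after blank subtraction (limma adjusted p = 0.0119), and its wells with EPA stood 696 to 971 units above the blanks. It also passed when blank subtraction was joined with median polish (-1.76) or with OTP3 centring (-1.17). The CAMK2A difference was 0.22 (limma adjusted p = 0.178).

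CASK, a membrane-associated scaffold with a kinase domain of the CaMKII type, read 28243, 29235 and 33480 units untreated and 26682, 19869 and 21147 with EPA, and 74.4% ± 7.94 (SE) was left. Cells alone in that row, row 9 of plate 1, kept 34.1%, and the median over the 939 library siRNAs was 68.6%. CASK was higher than the library without EPA (0.33, limma adjusted p = 0.0118, but 0.25 and not past the threshold without untreated replicate 3) and with it (0.58, limma adjusted p = 0.000309). Median polish placed it at 1.04 and 0.99. The difference of 0.25 (interval -0.05 to 0.55) did not pass (limma adjusted p = 0.159), and with OTP3 centring it did, at 0.64. That centring raised every difference on plate 1 by the same amount. CAMK2A (0.22 to 0.61), DAPK3 (0.16 to 0.55) and CAMK4 (0.14 to 0.52) then passed too.

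MYLK and MYLK2, the myosin light chain kinases best known from smooth muscle and skeletal muscle, were both lower than the library in both groups. MYLK2 read 8335, 6177 and 5918 units untreated and 4539, 5716 and 4582 with EPA, and its untreated value of -1.87 (SE 0.134, limma adjusted p = 1.46e-06) was the lowest of the 24 and the 16th lowest of the 939. MYLK, 2 columns away in row 13 of plate 2, read 15647, 14996 and 12767 units untreated and 5795, 6751 and 7691 with EPA. It was at -0.77 untreated and -1.14 with EPA. Neither difference passed, at -0.37 for MYLK (interval -0.88 to 0.14) and 0.28 for MYLK2 (interval -0.14 to 0.70). After blank subtraction MYLK stood at -1.01 (limma adjusted p = 0.0772) and MYLK2, whose wells with EPA were 645 to 1877 units above the blanks, at -0.72 (limma adjusted p = 0.306), on the other side of 0. MYLK2 did pass without EPA-treated replicate 4 (0.49, limma adjusted p = 0.0334). MYLK minus MYLK2 went from 1.10 ± 0.186 to 0.45 ± 0.266 log2 units (SD, n = 3) without overlap, and after median polish its groups overlapped.

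Counted over the 24, 9 siRNAs without EPA lay lower and 8 higher than the library's median in limma's test, where 35.6% of all library siRNAs were lower and 33.9% higher. The 9 target CAMK1, CAMK4, CAMK2B, DAPK1, STK17A, DCLK2, DCLK3, MYLK and MYLK2. After median polish DAPK1, DCLK2 (-0.10) and DCLK3 (-0.22) no longer passed and PHKG1 (-0.44) was lower. CAMK2D (0.59), CAMK2G (1.16) and PHKA1 (0.56) were higher there, and CAMK1G and CAMK2A no longer were. With EPA 13 were lower and 6 higher, where 37% of the library was lower and 36.4% higher. With EPA, PHKA1 (0.14), CAMK2A and STK17B did not pass after median polish, and CAMK2G (0.73) and DCLK2 (0.53) were higher. Without median polish, 8 of the 24 were lower in both groups and 5 higher in both, against 236 and 238 of the 939 library siRNAs. DCLK1 and DAPK2 were higher without EPA and lower with it, as were 28 of the 939 library siRNAs, and 0 of the 24 and 4 of the 939 went the other way. DCLK2's call under EPA was lost without EPA-treated replicate 5 (-0.35) and without edge wells (-0.19, limma adjusted p = 0.145), and that of PHKA1 without edge wells (-0.22, limma adjusted p = 0.0824). These calls are relative to the library, whose wells were themselves below OTP3. Untreated medians by plate and sample were 18220 to 26730 units for the library and 41060 to 54060 for OTP3. How many of the 939 were called with OTP3 centring was not counted, so the next counts have no library share beside them. Centred on OTP3, 22 of the 24 were lower and 0 higher without EPA (also 0 higher at an unadjusted p under 0.05 in limma's test), and 19 were lower and 2 higher with it. The 2 untreated values not called there were those of DAPK2 (-0.31, limma adjusted p = 0.0533) and CAMK2A (-0.26, limma adjusted p = 0.0507).

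Between relatives, 32 pairs of the 24 siRNAs lie within a family, and the within-sample log2 difference of a pair was compared between treatments. It did not overlap between groups for 12 of the 32 pairs (37.5%), against 48.2% of all pairs of library siRNAs. The exact permutation test on 3 against 3 cannot go below p = 0.1, and the lowest adjusted value was 0.267 (Benjamini-Hochberg over 32 pairs). The pairs without overlap included all 4 of DAPK2 with its relatives and both of DCLK1 with its own. Pairs of the same siRNA share its readings, so they are not separate observations. The 12 pairs within CaMKI and CaMKIV and within CaMKII all overlapped, and after median polish CAMK1D minus CAMK1G and CAMK2A minus CAMK2B did not.

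Other genes of calmodulin signalling were few in the screen. Of 25 listed, 12 were measured, and 2 were lower and 2 higher in EPA-treated minus untreated, with a median of 0.095, beside 15.2% lower, 29% higher and a median of 0.20 for all library siRNAs. CALM3, a calmodulin gene, was at -0.56 (SE 0.161, limma adjusted p = 0.0185) and GRK5, a receptor kinase that calmodulin inhibits, at -0.80 (SE 0.263, limma adjusted p = 0.033). MYLK3, the cardiac myosin light chain kinase, was at 0.71 (SE 0.227, limma adjusted p = 0.0287), and CAMKV, a pseudokinase of the CaMK type in an edge well, at 0.81 (SE 0.151, limma adjusted p = 0.00264). After median polish GRK5 (-0.87) and MYLK3 (1.10) passed, and CALM3 (-0.38) and CAMKV (0.40) did not. The upstream kinases CAMKK1 (-0.57, limma adjusted p = 0.0729) and CAMKK2 (0.33, limma adjusted p = 0.259), named after their values were seen, did not pass, though CAMKK1 did after median polish (-0.74). There was 1 lower without untreated replicate 1 or 3 or EPA-treated replicate 5 or 6, and 1 higher without untreated replicate 2 or 3 or EPA-treated replicate 5.

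Of 32 further kinases of the CAMK group by sequence, 30 were measured, with 6 lower, 2 higher and a median of 0.01. STK33 was at -1.22 (SE 0.161, limma adjusted p = 0.000659), its wells falling from 32930 ± 5571 to 8031 ± 854 units (SD, n = 3). TSSK6, a testis-specific kinase listed as SSTK, was at -1.30 (SE 0.191, limma adjusted p = 0.000978). PRKD2, a protein kinase D, was at -0.95, and TRIB3, a pseudokinase of stress signalling, at 0.98. All 4 also passed after median polish, at -1.53, -1.33, -0.95 and 0.79. The list had 1 higher without untreated replicate 2 or 3 and 4 higher without EPA-treated replicate 4 or 5. In shares, 20% of this list was lower and 6.67% higher, beside 15.2% and 29% of all library siRNAs and 20.8% and 8.33% of the 24.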

How the data were processed

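The members and gene lists were chosen with earlier results of these data known. The authors deposited raw fluorescence intensity for every well, per the file headers; any blank subtraction, position correction or normalization is not given in the sources used here. The 6 columns are headed by group and numbered 1 to 6, so replicates 1 to 3 are untreated and 4 to 6 EPA-treated. Genes were named by locus identifier through a RefSeq table (GRCh38.p14), and KALRN by its symbol.

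Each intensity was scaled to its own plate's library median in that sample, then taken to log2, with no pseudocount or filter. limma 3.58.1 (R 4.3.3; trend and robust) was fitted to all 939 library wells with a mean per group, two-sided, and Benjamini-Hochberg adjustment at 0.05 ran over all of them. The fit was tested on simulated data. All 24 members are named; from each other list, up to 4 with the largest statistic among those called. Blank subtraction used a floor of 3 SD of the blank wells, and no member well was at it. Edge wells are rows 1 and 16 and column 24. The low-signal filter was 2 times the TOX mean, where TOX is the positive control siRNA. The number of samples limits the precision. Blank subtraction with OTP3 centring was chosen after seeing the data. The siRNA sequences were not used here.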

Additional observations from a re-analysis of the deposited data

Results flagged for a closer look

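The effect of 7 siRNAs differed between EPA-treated and untreated samples by limma's test of the difference itself, 5 lower and 2 higher, where 15.2% of all library siRNAs were lower and 29% higher. The log2 differences were -1.75 for DCLK1, -1.51 for PSKH1, -1.18 for DAPK2, -0.53 for PHKA1, -0.45 for PHKG1, 0.64 for PHKA2 and 0.44 for DCLK2. The first 3 passed in all 16 alternatives, PHKA1 in 11, PHKA2 in 12, DCLK2 in 8 and PHKG1 in 5.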

How the results depend on the processing

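No paired analysis was possible because the 6 columns are numbered through both groups and cannot be tied to the replicate numbers of the labels. Apart from the values given here, the counts were within 1.5 times those reported. Calls over the whole library were counted only in the main fit and after median polish. The other counts in this section therefore have no library share beside them, and whether they differ from the library was not tested. OTP3 centring, which lowers every value in a single group, gave 22 lower and 0 higher without EPA, 2 higher with EPA, and 3 lower and 9 higher in EPA-treated minus untreated. It turned the untreated values of DAPK2 (-0.31), CAMK1D (-0.35), CAMK1G (-0.75), CAMK2A (-0.26), DCLK1 (-0.57), CAMK2D (-0.99), CAMK2G (-0.76), CASK (-0.75), PHKA1 (-0.98), PHKG2 (-0.41), PSKH1 (-0.99) and STK17B (-0.33). It also turned the EPA-treated values of CAMK1G (-0.43), DAPK3 (-0.61), CASK (-0.12), PHKA2 (-0.0059) and STK17B (-0.32), and the PHKG1 difference (0.076). Median polish gave 3 lower in the difference, and blank subtraction with median polish 5 lower without EPA. These 2 settings turned DAPK1 (0.013 and 0.017) and CAMK1G (-0.10 and -0.11) without EPA, and CAMK2G (0.73 and 1.25), DCLK2 (0.53 and 0.92) and PHKA1 (0.14 and 0.23) with it. The cause was not tested. The low-signal filter, which removed 5 of the 24, gave 4 lower without EPA and 1 higher in the difference. Blank subtraction gave 1 higher, centring on the median difference 0 (also 0 at an unadjusted p under 0.05 in limma's test), and blank subtraction with OTP3 centring 5.

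In the list of calmodulin signalling, the counts lower and higher were 0 (also 0 at an unadjusted p under 0.05 in limma's test) and 7 with OTP3 centring, 4 and 1 with blank subtraction and with median polish, and 5 and 1 with centring on the median difference; blank subtraction with OTP3 centring gave 4 higher and leaving out edge wells 1. For the other CAMK-group kinases they were 2 and 14 with OTP3 centring and 10 and 1 with centring on the median difference. There, 4 were higher with blank subtraction, 9 with OTP3 centring added to it, and 1 with median polish, with both together and without edge wells.

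Leaving out 1 sample at a time gave 3 to 6 lower and 0 to 3 higher among the 24 in the difference, 1 to 2 lower and 1 to 2 higher in the calmodulin list, and 4 to 6 lower and 1 to 4 higher in the CAMK-group list. The share of OTP3 signal left was 44.7% as a median over wells, 46.4% after blank subtraction, and 47.4% to 52.7% without 1 sample. Among single siRNAs in EPA-treated minus untreated, 329 of 378 values kept their call, 27 lost it and 21 gained one. Signal close to the blank wells limits what can be read for CAMK4, CAMK2B and MYLK2 with EPA. PSKH1 (1498 to 1994 units above the blanks with EPA) and DCLK1 (1590 to 3677) were also low. The size of their differences depended on blank subtraction, at -1.51 and -1.75 without it and -2.80 and -2.82 with it.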
